A study of Mus musculus with 6 samples.

Results

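Prl3d1, Prl8a2, Gzmd, Gzme, Gzmf, Gzmg and Prf1 were examined in RNA-seq of the mouse tailbud, 7 of the 35506 genes in the table. They were selected by their measured spread between the 6 libraries, as genes of the placenta and of the pregnant uterus, so their spread is described here and is not a finding. Each library came from 1 FVB/NJ embryo at E8.5 with 8 somites, from tissue below the last formed somite that holds the presomitic mesoderm. The 3 WT embryos were Smchd1+/+, 1 male (replicate 1) and 2 females, and the 3 MommeD43 embryos were Smchd1MommeD43/MommeD43, again 1 male (replicate 1) and 2 females. MommeD43 is a missense allele of Smchd1, a chromatin protein of the SMC family, carried constitutively and not by a transgene or Cre, and every embryo was on the same strain background. The 2 males had the same mother and each female had a mother of her own. One field of the labels gives the source as NSCs, which is at odds with the tailbud named in the sample titles, and the titles were followed.

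The prolactin family of the mouse is a large gene cluster on chromosome 13, and most of its members are hormones of the placenta. Prl3d1 encodes placental lactogen I, a hormone of trophoblast giant cells, the invasive outer cells of the early conceptus. Prl8a2 encodes decidual prolactin-related protein, which is known first of all from the decidua, the transformed lining of the uterus, so the word trophoblast describes Prl3d1 better than Prl8a2. Gzmd, Gzme, Gzmf and Gzmg encode serine proteases of the granzyme cluster on chromosome 14 and are known from granulated lymphocytes of the pregnant uterus and from the placenta. Prf1 encodes perforin, the pore-forming protein of the granules in which cytotoxic lymphocytes store granzymes.

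Library totals ranged from 10957916 (MommeD43 replicate 1) to 47298348 (MommeD43 replicate 2) reads. All 10 tailbud markers examined, such as T, Tbx6 and Msgn1, were present in every library, and their summed level was 590 to 797 RPKM (reads per kilobase of exon, scaled to the size of the library). Smchd1 itself ranged from 7.15 to 8.58 RPKM, with a difference of MommeD43 minus WT of -0.087 ± 0.089 (SE) on the log2 RPKM scale, and since the allele is a missense change this does not check the genotype labels. Reads were recovered as whole numbers from the RPKM values, and all 95% intervals given for a level are exact Poisson intervals that cover counting error only.

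The 4 granzyme genes lie within one cluster and are close copies of each other, with 88.6% to 95% identity between their transcripts. The stretch of 123 bases in front of their starts is shown because these genes had almost the same order of levels over the libraries. The sequences are from the RefSeq promoter table for GRCm38.p6, which had an entry for 6 of the 7 genes. They lie on the minus strand at chr14:56132612-56132734 (Gzmd), chr14:56120645-56120767 (Gzme), chr14:56211447-56211569 (Gzmf) and chr14:56159614-56159736 (Gzmg). Capitals mark TTTAAAA, of the kind bound by TATA-binding protein, and TGACGTCA, the motif known as the cyclic AMP response element.
Gzmd: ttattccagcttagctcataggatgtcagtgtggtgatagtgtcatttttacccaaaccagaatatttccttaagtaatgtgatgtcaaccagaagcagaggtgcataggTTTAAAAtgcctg
Gzme: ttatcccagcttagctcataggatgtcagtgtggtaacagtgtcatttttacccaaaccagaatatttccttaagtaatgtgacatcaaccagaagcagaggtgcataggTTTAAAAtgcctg
Gzmf: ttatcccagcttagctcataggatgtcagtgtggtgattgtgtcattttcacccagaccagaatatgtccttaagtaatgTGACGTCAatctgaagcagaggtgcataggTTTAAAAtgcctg
Gzmg: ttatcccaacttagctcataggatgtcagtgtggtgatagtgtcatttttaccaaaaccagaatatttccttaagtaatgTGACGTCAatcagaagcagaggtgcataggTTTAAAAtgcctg

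Between pairs of these 4 stretches 92.7% to 95.9% of the bases were identical. Each stretch was cut from 110 bases before TTTAAAA to 6 bases after it, so its equal place in all 4 follows from the cut. Of 32851 promoters of 300 bases (250 before and 50 after the start), 8.74% held TTTAAAA on either strand. TGACGTCA was found in Gzmf and Gzmg and not in Gzmd or Gzme, against 1.79% of all promoters. The Prl3d1 stretch lies at chr13:27094050-27094173 on the plus strand, with TGANTCA (the AP-1 motif) and 2 overlapping matches of TATATA in capitals. The Prf1 stretch lies at chr10:61297678-61297800 on the plus strand, with 2 overlapping matches of TTTAAAA, one on each strand, in capitals.
Prl3d1: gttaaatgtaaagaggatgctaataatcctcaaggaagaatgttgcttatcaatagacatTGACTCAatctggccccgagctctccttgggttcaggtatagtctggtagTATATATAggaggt
Prf1: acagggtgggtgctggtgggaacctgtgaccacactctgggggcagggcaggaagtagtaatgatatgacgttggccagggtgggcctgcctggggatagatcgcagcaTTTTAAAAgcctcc

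TGANTCA was held by 7.81% and TATATA by 5.67% of all promoters. AGATAA, a motif of GATA factors held by 11.2% of promoters, and TTCNNNGAA, a STAT motif held by 8.30%, were searched for on both strands as well, and neither was in these 6 windows. These motifs were chosen after the sequences had been seen, and a match is a description of the letters, not of a bound site.

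Prl3d1 was the most uneven of the 7 genes. It had 62, 0 and 4 reads in WT replicates 1 to 3, or 1.94, 0 and 0.275 RPKM. In MommeD43 replicates 1 to 3 it had 11, 591 and 6 reads, or 1.15, 14.3 and 0.524 RPKM. MommeD43 replicate 2 thus stood far above the other 5 libraries, while its 2 partners lay inside the WT range. That library was 98.4-fold above WT replicate 2 when the absence of reads was set to 3 reads, a ratio given without counting error. The exact interval of WT replicate 2 reached 0.1785 RPKM, against 0.1451 RPKM for 3 reads. The interval of MommeD43 replicate 2, 13.2 to 15.5 RPKM, lay clear of that of the next library, WT replicate 1 (1.48 to 2.48 RPKM). WT replicate 1 and MommeD43 replicate 1 (0.573 to 2.05 RPKM) could not be ordered beyond counting error, and neither could WT replicate 3 and MommeD43 replicate 3.

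Of the exon sequence of Prl3d1, 34.6% of all 75-base windows, the length of a read, were also present in Prl3d2 or Prl3d3, the other copies of placental lactogen I. How reads with several matches were counted is not given in the sources used here, so the division of reads among these 3 genes is uncertain. The other Prl3d genes had few reads, with 25 for Prl3d2 in MommeD43 replicate 2 and 4 in WT replicate 1.

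Prl8a2 was spread more evenly and followed another order. The WT replicates had 211, 29 and 99 reads, or 6.14, 1.31 and 6.34 RPKM. The MommeD43 replicates had 80, 135 and 45 reads, or 7.78, 3.04 and 3.66 RPKM. Every library held the transcript, WT replicate 2 was the lowest, and MommeD43 replicate 2, so high for Prl3d1, was the second lowest. MommeD43 replicate 1 exceeded WT replicate 2 by 5.95-fold (3.85 to 9.44). The intervals of the 3 highest libraries overlapped, as did those of MommeD43 replicates 2 and 3. No 75-base window of Prl8a2 occurred in another gene. Over the 6 libraries the rank correlation of Prl3d1 with Prl8a2 was 0.14 (Spearman's rho, a description only, with both genes at the same depth within each library).

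Most other prolactin genes with at least 10 reads in all were highest in the same library as Prl3d1, though Prl8a2 was not. Of the 23 other prolactin genes besides Prl3d1 and Prl8a2, 18 had a read, and 11 had at least 10 reads in all. Of these 11, 10 were highest in MommeD43 replicate 2, the exception being Prl3c1. Their summed level was 31.4 RPKM in that library against 3.71, 0.534 and 1.31 RPKM in the WT replicates and 3.25 and 1.33 RPKM in MommeD43 replicates 1 and 3. MommeD43 replicate 2 was thus 8.47 times above the next library and held 88.1% of all reads of these genes, though it was also the deepest library.

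None of these hormones reached the RPKM of Prl3d1 in that library. Prl7a1, a prolactin-like protein of giant cells, had 54, 7 and 9 reads in the WT replicates and 9, 688 and 5 reads in the MommeD43 replicates, and stood at 8.97 RPKM in MommeD43 replicate 2. Prl4a1, also a product of giant cells, had 42, 1 and 4 reads against 11, 224 and 6 reads, with 5.41 RPKM at its highest. Both were detected in every library, as Prl8a2 was and Prl3d1 was not. Prl2c3 and Prl2c2, 2 of the proliferin genes that promote blood vessel growth, had 517 and 218 reads in MommeD43 replicate 2, or 8.04 and 4.23 RPKM, and at most 15 and 9 reads in any other library. The proliferins cannot be told apart well, since 51.7% of the windows of Prl2c3 and 71.8% of those of Prl2c2 were shared with other genes. Prl2c5, Prl5a1, Prl7d1, Prl2a1 and Prl6a1 were lower, with 63, 54, 65, 31 and 9 reads in the same library. Prl3c1 had 4, 4 and 0 reads in the WT replicates and 3, 0 and 7 reads in the MommeD43 replicates. It was thus without a read where most of these genes were highest.

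**Figure D1:**
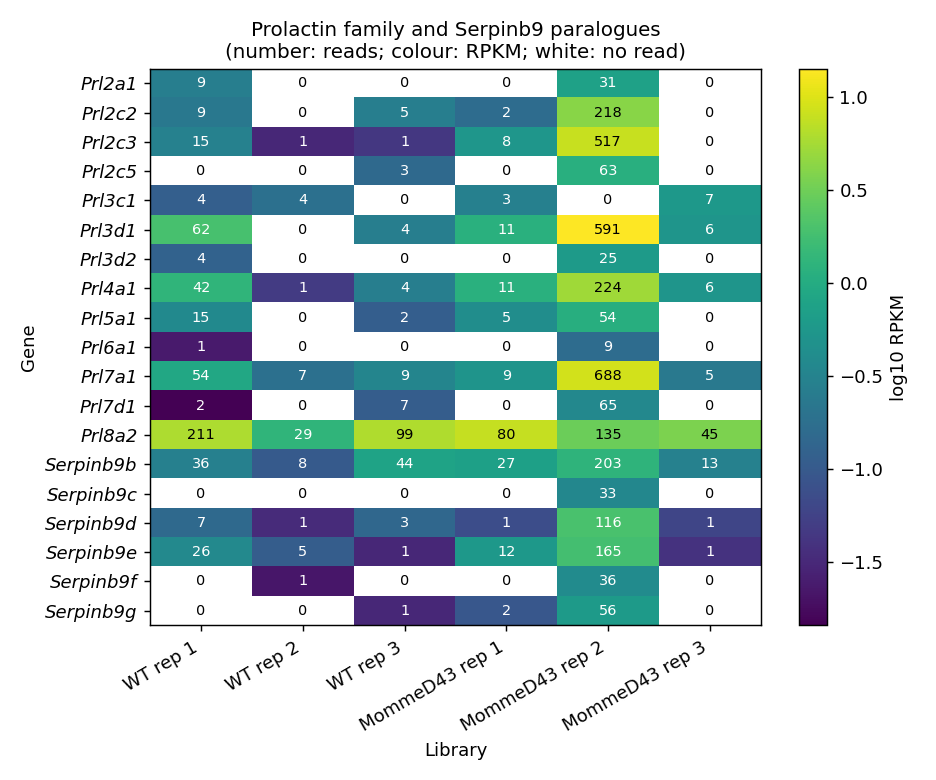
Reads (numbers) and level (colour, log10 RPKM, white for no read) of the 13 prolactin genes with at least 10 reads and of 6 Serpinb9 paralogues in each of the 6 libraries. The column of MommeD43 replicate 2 holds the highest values for all genes but Prl3c1 and Prl8a2.

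The same library stood apart for the paralogues of Serpinb9, intracellular serine protease inhibitors of the type that blocks granzyme B, which have multiplied in the mouse and of which several are known from the placenta. All 6 of Serpinb9b to Serpinb9g were highest in MommeD43 replicate 2, a grouping made after their values had been seen. Their summed level was 0.816, 0.267 and 0.997 RPKM in the WT replicates and 1.5, 6.42 and 0.397 RPKM in the MommeD43 replicates. Serpinb9c had 33 reads there and none elsewhere. Serpinb9 itself did not share this order, at 0.328 to 0.751 RPKM with WT replicate 2 the highest. Up to 65.5% of the windows of these paralogues (Serpinb9f) were shared with other genes, so their reads may be divided wrongly among them.

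Markers of the trophoblast other than prolactins were uneven in level. Of 27 such genes, 12 had no read in any library, among them Syna and Synb, the syncytins of the labyrinth. Tpbpa, the defining marker of the spongiotrophoblast, had 11 reads in MommeD43 replicate 2 and none elsewhere. Cts7, a placental cathepsin, had 24, 0 and 7 reads in the WT replicates and 3, 55 and 0 reads in the MommeD43 replicates. Plac1, a placental gene, had 1402 reads in all and lay between 5.50 RPKM (MommeD43 replicate 2) and 10.4 RPKM (MommeD43 replicate 1), so it was lowest in the library where Tpbpa and Cts7 were highest. Elf5, a transcription factor of trophoblast stem cells, had 50 reads and was highest in MommeD43 replicate 1, at 0.0932 RPKM. That rested on 6 reads, too few to order the libraries. Of the 9 markers with at least 10 reads in all, 4 were highest in MommeD43 replicate 2 and 2 in MommeD43 replicate 1. The summed level of the list, 56.8 to 66.6 RPKM in WT and 58.0 to 74.9 RPKM in MommeD43, was carried by Hand1, which embryonic mesoderm also expresses. The part of trophoblast cells in the levels of Prl3d1 was not tested. In bulk tissue, fewer cells of a type and less RNA per cell cannot be told apart.

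Each of the 4 granzymes was highest in MommeD43 replicate 1, as Prl8a2 was and Prl3d1 was not. Gzmd had 81, 6 and 22 reads in the WT replicates (2.30, 0.264 and 1.37 RPKM) and 45, 77 and 0 reads in the MommeD43 replicates (4.26, 1.69 and 0 RPKM). Gzme had 35, 1 and 10 reads (1.04, 0.0462 and 0.657 RPKM) against 37, 57 and 7 reads (3.69, 1.32 and 0.584 RPKM). The WT range lay within or overlapped the MommeD43 range for both, and WT replicate 2 held 6 reads of the first and 1 read of the second. Gzmf had 84, 6 and 37 reads (2.5, 0.276 and 2.42 RPKM) against 52, 109 and 15 reads (5.16, 2.51 and 1.25 RPKM). Gzmg had 82, 6 and 26 reads (2.46, 0.279 and 1.72 RPKM) against 68, 64 and 14 reads (6.83, 1.49 and 1.18 RPKM). For these 2 genes the order was again MommeD43 replicate 1 at the top and WT replicate 2 at the bottom, with the other 4 libraries between them.

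The distance between the highest and the lowest library was large for each granzyme. It was 17.9-fold for Gzmd, with the lowest library, MommeD43 replicate 3 without a read, set to 3 reads. It was 79.8-fold for Gzme, with an interval of 13.5 to 3234 since the lowest library had 1 read. It was 18.7-fold (8.03 to 53.2) for Gzmf and 24.4-fold (10.7 to 68.9) for Gzmg. The interval of MommeD43 replicate 1 lay clear of every other library for all 4 genes, whereas for Gzmf those of WT replicate 1, WT replicate 3 and MommeD43 replicate 2 overlapped.

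Prf1, perforin, had 26, 0 and 11 reads in the WT replicates, or 0.275, 0 and 0.256 RPKM. It had 23, 35 and 2 reads in the MommeD43 replicates, or 0.812, 0.286 and 0.0591 RPKM. It was thus the lowest of the 7 genes by level but had the order of the granzymes. It stood 16.5-fold higher in MommeD43 replicate 1 than in WT replicate 2, set to 3 reads. Its ranks over the 6 libraries were those of Gzme and Gzmf exactly (Spearman's rho 1.0 for each pair), and rho was 0.89 with Gzmd and 0.83 with Gzmg. WT replicate 1, WT replicate 3 and MommeD43 replicate 2 did not differ beyond counting error for Prf1. The rank correlation with the 4 granzymes was 0.60 to 0.89 for Prl8a2, highest for Gzmg, and 0.49 to 0.77 for Prl3d1, highest for Gzme and Gzmf, so by rank Prl3d1 was nearer to the granzymes than to Prl8a2. Across all 7 genes, 6 were highest in MommeD43 replicate 1 and 6 were lowest in WT replicate 2, the exceptions being Prl3d1 at the top and Gzmd at the bottom. MommeD43 replicate 1 was the shallowest library, and it shared its mother and its sex with WT replicate 1, the library with the second highest summed level of the 4 granzymes.

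**Figure D2:**
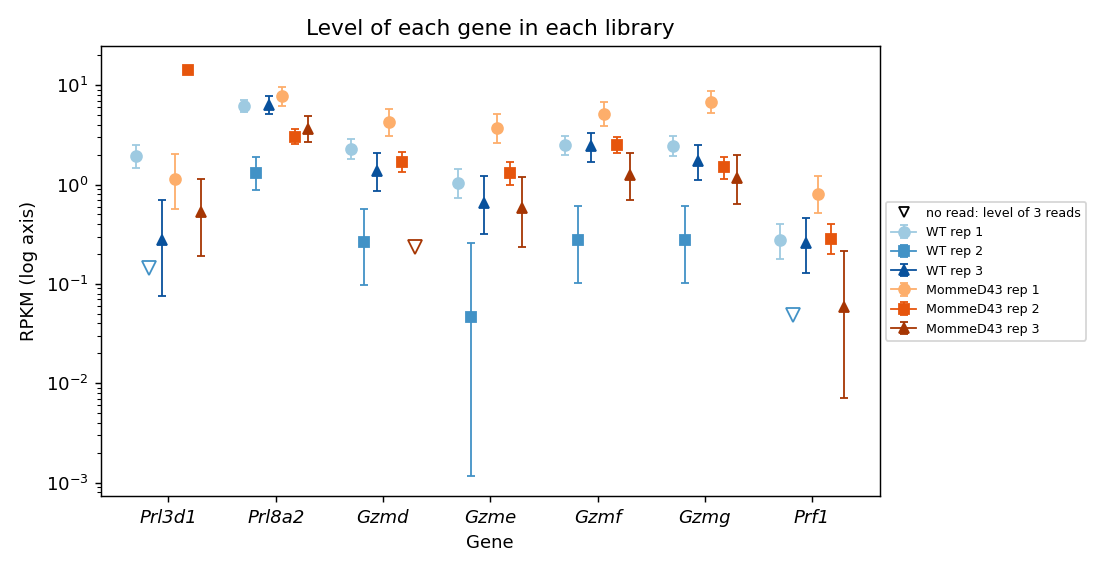
Level of each of the 7 genes in each library in RPKM on a log axis, with blue for WT and orange for MommeD43, 1 symbol a library, bars for the exact 95% Poisson interval and open triangles for libraries without a read, placed at the level of 3 reads. Prl3d1 peaks in MommeD43 replicate 2 (14.3 RPKM), and the other 6 genes peak in MommeD43 replicate 1.

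Among the granzyme reads, Gzmd took 28.7%, 31.6% and 23.2% of the reads of the 4 genes in the WT replicates and 22.3% and 25.1% in MommeD43 replicates 1 and 2. MommeD43 replicate 3 had 0 of 36 reads, where 3 reads would be 8.33%, with an exact binomial upper limit of 9.74%. The lower limit in WT replicate 1, on 282 reads, was 23.5%, and in WT replicate 2, on 19 reads, it was 12.6%. Gzme took 5.26% to 19.4% and Gzmf 25.7% to 41.7% of the reads over the 6 libraries. Gzmg took 20.9% to 38.9%, and its share in MommeD43 replicate 1 (33.7%, interval 27.2% to 40.6%) lay clear of that in MommeD43 replicate 2 (20.9%, interval 16.4% to 25.8%). The absence of Gzmd from 1 library was singled out after the values had been seen. Of the 75-base windows of Gzmd, 5.73% were shared with Gzmg or Gzme, so a few reads could pass between these genes. In Gzmf 16.4% of the exon bases overlapped Gm4022 on the opposite strand, and the strand setting of the counting is not given in the sources used here, though the library kit was stranded per the labels.

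**Figure D3:**
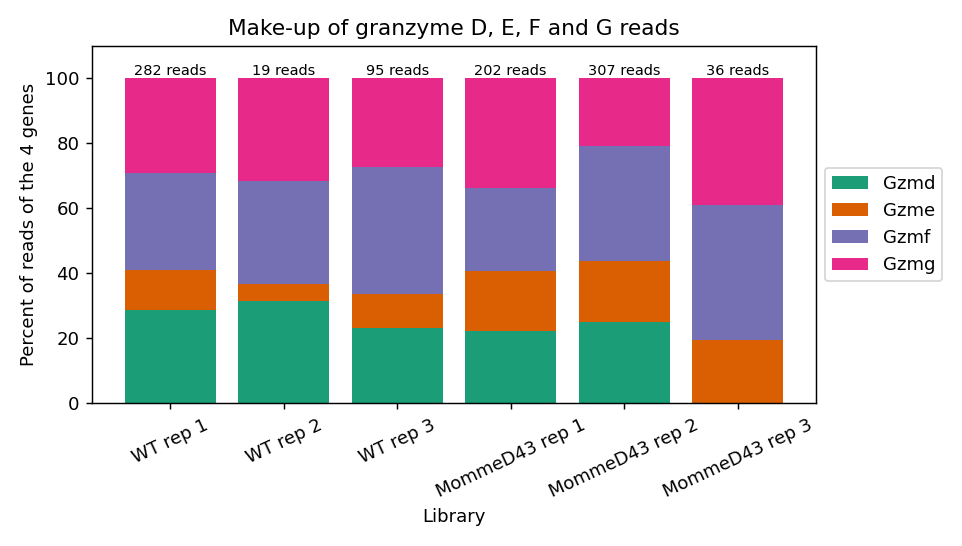
Percent of the reads of Gzmd, Gzme, Gzmf and Gzmg taken by each gene in each library, with the number of reads above each bar. Gzmd makes up 22.3% to 31.6% in 5 libraries and has no read among the 36 of MommeD43 replicate 3.

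Neighbouring proteases showed which granzymes were present. Of the 18 granzymes and proteases of their gene clusters, 8 had no read, among them Gzmn and all of the mast cell proteases listed (Cma1, Cma2 and the Mcpt genes). Gzmc, the neighbour of Gzmd to Gzmg in the cluster, had 29, 5 and 9 reads in the WT replicates and 23, 17 and 0 reads in the MommeD43 replicates. Gzmb, the main killer granzyme of lymphocytes, had 5, 0 and 1 reads against 9, 4 and 0 reads, and Gzma, its partner in killer cells, had 1 read in all. Gzmk had 5, 0 and 1 reads against 4, 4 and 0 reads, and Ctsg, cathepsin G of the same cluster as Gzmb, had 5, 1 and 1 reads against 2, 4 and 1 reads. So Gzmc, Gzmb, Gzmk and Ctsg were, like Gzmd to Gzmg, highest by RPKM in MommeD43 replicate 1, the shallowest library. For Gzmb, Gzmk and Ctsg this rested on 9, 4 and 2 reads there, and for Gzmk and Ctsg these are too few to order the libraries. Gzmk and Gzmm both lie outside the cluster of Gzmd to Gzmg, on chromosomes 13 and 10. Gzmm went another way, at 0.434 to 0.805 RPKM with WT replicate 2 the highest. Summed over the 4 granzymes, the level was 8.30, 0.866 and 6.17 RPKM in WT and 19.9, 7.0 and 3.01 RPKM in MommeD43.

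Most defining markers of cytotoxic lymphocytes were at or near 0 in the same libraries. Of 15 such markers other than Prf1, 6 had no read in any library, among them the killer cell receptors Klrd1, Klre1 and Klrk1 and the T cell gene Cd3e. Ptprc, the CD45 antigen of nearly all leukocytes, had 1 read in MommeD43 replicate 1 and 4 in MommeD43 replicate 2. Ncr1, the receptor NKp46 of natural killer cells, had 1 read in WT replicate 1 and 3 in MommeD43 replicate 1. The summed level of the 15 genes was 0.653 to 1.06 RPKM in WT and 0.971 to 1.55 RPKM in MommeD43, most of it from Nkg7, which had 8 to 37 reads in every library. Il2rb, a subunit of the receptors for interleukins that sustain these cells, had 15, 0 and 5 reads in WT and 8, 11 and 0 in MommeD43. Of the 3 markers other than Prf1 with at least 10 reads in all, 2 were highest in MommeD43 replicate 1, as Prf1 was. These were Nkg7 (1.20 RPKM) and Il2rb (0.170 RPKM), on 12 and 8 reads in that library. Macrophage markers were likewise low, with a summed level of 0.926 to 2.47 RPKM, highest in MommeD43 replicate 1, and no read of Adgre1 or C1qa. Of 7 mast cell markers 5 had no read, and the others had 14 reads in WT replicate 1 and 3 in MommeD43 replicate 2.

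The list of granule release and granzyme control was dominated by genes that most cells express. Of 18 genes, 17 had at least 10 reads, led by Lamp1 and Igf2r, a lysosomal membrane protein and a receptor that can take up granzyme B, and the summed level was 157 to 180 RPKM. Ctsc, the protease that activates granzymes, was at 1.18 to 3.27 RPKM, highest in MommeD43 replicate 1 and lowest in MommeD43 replicate 2. Srgn, the granule proteoglycan that carries granzymes, had 27, 7 and 13 reads in WT and 15, 23 and 1 in MommeD43 (0.336, 0.135 and 0.356 RPKM against 0.623, 0.221 and 0.0348 RPKM). Srgn thus shared its highest library with Prf1, but its lowest was MommeD43 replicate 3 and not WT replicate 2. Of the 17 genes with at least 10 reads, 4 were highest in MommeD43 replicate 1 and 7 in MommeD43 replicate 2. Cst7, an inhibitor of Ctsc, had no read.

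Markers of other tissues also moved between the libraries. The 14 markers of yolk sac endoderm, such as Afp, Apoa1 and Ttr, summed to 152, 272 and 306 RPKM in WT and 476, 56.8 and 42.7 RPKM in MommeD43, and all 14 were highest in MommeD43 replicate 1. WT replicate 2, the lowest library for 6 of the 7 genes, was the third highest for this list. Hbb-bs and Hbb-bt, the beta globins of adult red cells, summed to 6.10, 1.40 and 42.6 RPKM in WT and 22.0, 7.38 and 22.6 RPKM in MommeD43, so WT replicate 2 was again the lowest. The embryonic globins Hbb-bh1, Hbb-y and Hba-x were highest in WT replicate 2, at 467 RPKM, and at 5.34 to 207.5 RPKM in the others. This split of the globins was made after the values had been seen. The 11 genes of decidual stroma summed to 17.1 to 31.5 RPKM in WT and 23.6 to 31.1 RPKM in MommeD43, led by Hand2, Cryab and Bmp2, which the embryo also expresses. Among the more restricted ones, Igfbp1 had 10, 1 and 3 reads in WT and 2, 2 and 0 in MommeD43, and Prlr, the prolactin receptor, had at most 28 reads in a library. Aoc1, a diamine oxidase, had 29, 2 and 13 reads in WT (0.243, 0.026 and 0.240 RPKM) and 14, 15 and 8 in MommeD43 (0.392, 0.0974 and 0.188 RPKM). Its highest and lowest libraries were those of Gzme, Gzmf, Gzmg and Prf1. Of the 11 genes, Aoc1 alone was lowest in WT replicate 2, and 3 were highest in MommeD43 replicate 1. With more reads than Aoc1, Tdo2 was highest in WT replicate 3, Wnt4 in MommeD43 replicate 2 and Pgr in WT replicate 1. Xist, which only cells with an inactive X chromosome transcribe, was at 0.0393% (0.0180% to 0.0745%) and 0.0437% (0.00902% to 0.128%) of the female mean in the male WT and MommeD43 libraries. The part of any of these tissues in the levels of the 7 genes was not tested.

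**Figure D4:**
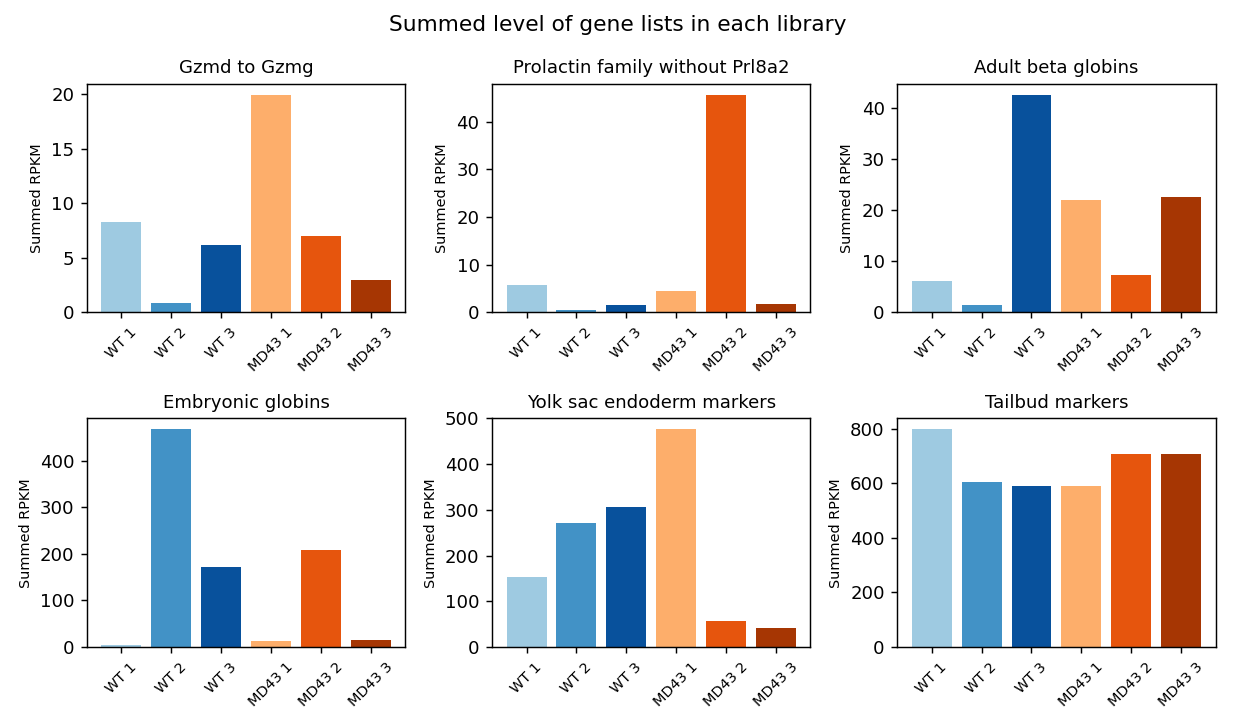
Summed RPKM of 6 gene lists in each library, 1 bar a library, with blue for WT and orange for MommeD43 (MD43) and an axis of its own from 0 for each list. The granzymes and the yolk sac markers are highest in MommeD43 replicate 1, the prolactin family in MommeD43 replicate 2, and tailbud markers stay between 590 and 797 RPKM.

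The comparison of the genotypes asked whether homozygous MommeD43 embryos differed from WT in these transcripts. No difference was called. All 7 genes passed the filter on low values, and limma on the log2 RPKM of 13617 autosomal genes called 0 of the 7 at an adjusted p under 0.05. It called 0 genes in all (0% of those tested), with 327 at an unadjusted p under 0.05, none of which was among the 7, and limma with voom weights on the recovered reads also called 0, with 425 at an unadjusted p under 0.05. Replicates are separate embryos, so the test weighed each difference against the spread between embryos of a group, counting error included. The smallest differences relative to their error were those of Gzmd and Prl8a2, as the plot of the differences shows.

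The prolactins averaged 0.737 ± 1.05 RPKM in the WT and 5.32 ± 7.77 RPKM in the MommeD43 embryos for Prl3d1, and 4.60 ± 2.85 and 4.83 ± 2.57 RPKM for Prl8a2 (mean ± SD, n = 3 each). On the log2 RPKM scale the difference of MommeD43 minus WT was 2.84 ± 1.51 (SE) for Prl3d1 and 0.26 ± 0.61 for Prl8a2, with an adjusted p of 0.999 by limma for both. In this fit the libraries without a read carried the deposited value, which stands for 0.9 read, as was the case for Prl3d1 in WT replicate 2, Gzmd in MommeD43 replicate 3 and Prf1 in WT replicate 2. Without MommeD43 replicate 2 the difference of Prl3d1 was 1.44, and without WT replicate 2 it was 1.49. Of the 25 prolactin genes 4 passed the filter, the other two being Prl4a1 at 2.51 ± 1.20 and Prl7a1 at 1.42 ± 1.23, and none passed the test in either direction. The median difference of these 4 was 1.97 on the log2 scale. In RPKM, the SD of Prl3d1 between its own 3 MommeD43 embryos (7.77), set largely by MommeD43 replicate 2, exceeded the distance between the group means.

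The granzymes averaged 1.31 ± 1.02 RPKM in the WT and 1.98 ± 2.15 RPKM in the MommeD43 embryos for Gzmd, 0.582 ± 0.503 and 1.86 ± 1.62 RPKM for Gzme, 1.73 ± 1.26 and 2.97 ± 2.0 RPKM for Gzmf, and 1.49 ± 1.11 and 3.16 ± 3.18 RPKM for Gzmg (mean ± SD, n = 3 each). The differences on the log2 RPKM scale were -0.23 ± 1.42 (SE) for Gzmd, 2.16 ± 1.13 for Gzme, 1.09 ± 0.85 for Gzmf and 1.11 ± 0.89 for Gzmg, and limma gave an adjusted p of 0.999 for each. The means and the log2 difference of Gzmd had opposite signs, and without MommeD43 replicate 3, the library without a read, the log2 difference was 1.51. Without WT replicate 2 the values were 0.77 for Gzme, 0.040 for Gzmf and 0.15 for Gzmg, so that 1 library carried most of each difference. Prf1 averaged 0.177 ± 0.154 RPKM over the WT and 0.386 ± 0.386 RPKM over the MommeD43 embryos (mean ± SD, n = 3 each), with a log2 difference of 1.24 ± 1.29 that became -0.15 without WT replicate 2. Of the 18 granzymes and cluster proteases 6 passed the filter, the other two being Gzmc at -0.27 ± 1.10 and Gzmm at -0.24 ± 0.26. None of these 6 passed the test, and their median difference was 0.43. No gene of the other marker lists passed it either.

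**Figure D5:**
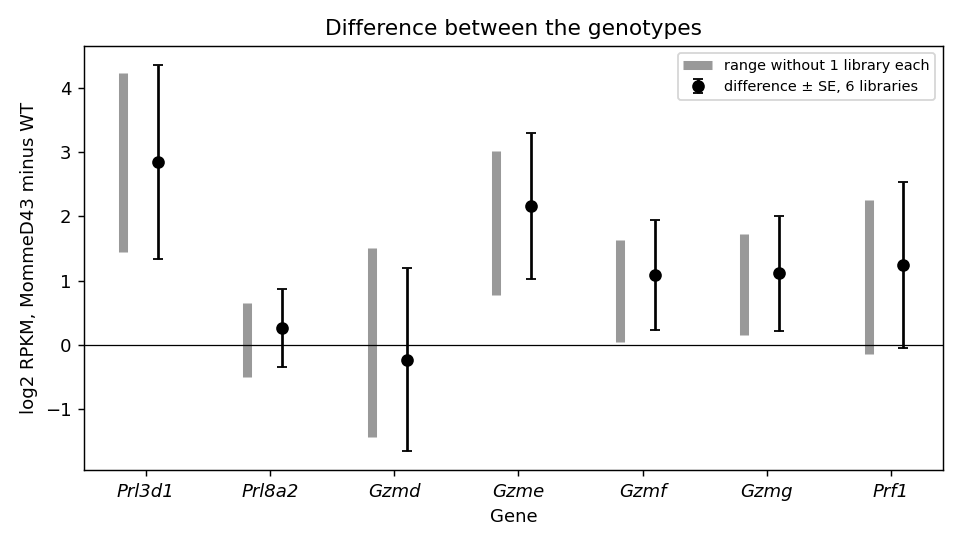
Difference of MommeD43 minus WT in log2 RPKM for each of the 7 genes (points, with bars for the SE of the limma fit on 6 libraries), beside the range of that difference when each library is left out in turn (grey). The grey bars of Prl8a2, Gzmd and Prf1 cross 0.

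Of the 7 differences, 6 were positive and 1 was negative, with a median of 1.11 against 0.003 over all genes tested. The 7 genes were chosen for their spread and shared much of their library order, so these signs are not separate observations. With each library left out in turn, the median of the 7 ran from 0.04 (without WT replicate 2) to 1.72 (without WT replicate 1). In none of the 7 genes did the 3 WT and the 3 MommeD43 libraries separate without overlap, which happened in 964 of the genes tested (7.08%). By their SD of log2 RPKM over the 6 libraries, the values that chose them, the genes ranked 4 (Prl3d1, 2.81), 16 (Gzmd, 2.22), 20 (Gzme, 2.11), 24 (Prf1, 2.06), 85 (Gzmg, 1.5), 95 (Gzmf, 1.45) and 345 (Prl8a2, 0.95) from the largest among 13617, where the median gene had 0.14. A test of whether the genotype difference itself differed between male and female embryos passed for none of the 7 genes (interaction in limma, adjusted p from 0.496 for Prl3d1 to 0.991 for Gzmf), with 1 male in each group. Over all genes tested, the interaction was called for 37 (0.272%).

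The genes most like each set were taken by Pearson's r between log2(RPKM + 0.01) of a gene and of the summed set, over the 6 libraries and among 16588 genes with at least 15 reads. For the sum of Prl3d1 and Prl8a2 these were Trpm6 (0.991), Vsig10l (0.989), Gm2694 (0.981), Itgb1bp2 (0.976) and Myo1h (0.972). Their range was far narrower than that of the prolactins, as Trpm6, a magnesium channel, lay between 0.203 and 0.436 RPKM. For the 4 granzymes they were Slc39a2 (0.988), Eras (0.982), Gm10822 (0.976), Spp1 (0.975) and Fcrl6 (0.970). Of these Spp1, the secreted phosphoprotein osteopontin, came nearest to the granzymes in size, with 1.06, 0.0257 and 1.35 RPKM in WT and 3.60, 1.05 and 0.139 RPKM in MommeD43. Only 6 libraries of unequal depth were compared, and within each library all genes shared the same depth. With so many genes compared, values of r this high describe an order of libraries and nothing more.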

How the data were processed

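RNA was sequenced from tailbuds of 6 embryos, 3 of each genotype, grouped and numbered by the sample labels. Reads were trimmed with Trim Galore 0.4.4 and mapped with HISAT2 2.0.5 to GRCm38.p6, per the submitters' processing notes, and counted per gene in SeqMonk, per the study's methods. The authors deposited log2 RPKM, that is log2 of reads per kilobase of exon and scaled to library size. Their mean columns were not used.

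Of 35591 rows, 35555 matched GENCODE M21 by identifier, which gave exon lengths, and 35506 genes remained after 49 repeats. Whole reads were recovered for 99% of 105978 values within 0.02 of a read. Genes without a read were deposited at 0.9 read. The filter on low values required 0.497 CPM, the value of 10 reads at the median depth, in 3 or more libraries and 15 reads in total. It left 13617 autosomal genes.

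Differences were tested with limma 3.58.1 in R 4.3.3 with a mean-variance trend, two-sided and adjusted by the Benjamini-Hochberg method. Alternatives were no filter, median-ratio scaling, pseudocounts of 0.1 and 1 RPKM, voom, sex as a covariate, the replicate block and each library left out. Intervals are exact at 95%, and 3 reads were the floor of a library. The fit was tested on simulated data, in which the changed genes had higher levels and less spread between libraries than the genes examined here. Python 3.11.15, pandas 2.3.3, numpy 2.4.6, scipy 1.17.1 and matplotlib 3.10.9 did the rest.

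The 7 genes and the marker lists were chosen with earlier results of these data known. Genes named were the 7, prolactins and granzymes with at least 10 reads, up to 6 genes of highest mean RPKM in each other list and any that passed the test, Smchd1, Xist, and the 5 genes most like each set. Other genes are named where a count, an absence or a role is described and were chosen after their values were seen.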

Additional observations from a re-analysis of the deposited data

How the results depend on the processing

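No alternative called any of the 7 genes, any gene of the marker lists or any autosomal gene, and the number at an unadjusted p under 0.05 ran from 187 to 944 (327 with all 6 libraries). The direction was that reported for Prl3d1, Gzme, Gzmf and Gzmg under all 13 alternatives. For Prl8a2 the log2 difference became -0.0349 with voom, and it ran from -0.50 to 0.64 when each library was left out, negative without WT replicate 2 (-0.50) and without MommeD43 replicate 1 (-0.15). For Gzmd it became 0.17 with log2(RPKM + 1) and ran from -1.44 to 1.51, positive without WT replicate 1 (0.41), WT replicate 3 (0.042) or MommeD43 replicate 3 (1.51). For Prf1 it ran from -0.15 to 2.25, negative without WT replicate 2. The ranges were 1.44 to 4.23 for Prl3d1, 0.77 to 3.02 for Gzme, 0.040 to 1.63 for Gzmf and 0.15 to 1.72 for Gzmg. For these 4 genes log2(RPKM + 1) gave 1.25, 0.76, 0.56 and 0.61. The cause of these changes was not tested. With the replicate block, 0 genes were called and 307 had an unadjusted p under 0.05. Deviations of same-numbered libraries correlated at -0.03, 0.17 and -0.17, which cannot settle whether the numbers pair the samples. Only the replicate 1 embryos shared a mother. The study describes its embryos as paired by somite number, which was 8 for every library here. At 10957916 to 47298348 reads, the members had 0 to 591 reads in a library, which limits the order of the lower libraries.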

Other observations

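The 7 endothelial markers examined, among them Pecam1, Cdh5 and Kdr, summed to 24.0 to 41.9 RPKM in WT and 34.1 to 44.7 RPKM in MommeD43, highest in MommeD43 replicate 1. The 12 erythroid markers summed to 17.2 to 490 RPKM in WT and 48.6 to 230 RPKM in MommeD43, highest in WT replicate 2. Serpinb6b, an inhibitor outside the Serpinb9 group, was at 0.398, 0.693 and 0.851 RPKM in the WT replicates and 0.888, 1.37 and 0.608 RPKM in the MommeD43 replicates.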
